A study of Rattus norvegicus with 9 samples.

Results

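The microglia and complement genes described here are C1qa, C1qb, C1qc, C3, Cx3cr1, Csf1r, P2ry12, Tmem119 and Aif1, 9 of the 30562 genes in the deposited count table. They were taken by gene name, and each name belonged to a single gene ID. Hippocampal RNA was sequenced in 3 groups of rats with 3 libraries each. The animals were male Sprague-Dawley rats, 6 to 8 weeks old at the start and had 1 week to settle. Ctrl rats were normal controls. Model rats had a high-fat diet for 4 weeks, 1 intraperitoneal dose of streptozotocin (50 mg/kg), a toxin of insulin-producing cells, and then unpredictable mild stress for 5 weeks. Rats with fasting glucose of at least 16.7 mmol/L were taken as diabetic. ChryM rats received chrysophanol, a plant anthraquinone, by gavage for 14 days. They are taken here to have had the same diet, streptozotocin and stress as Model rats. This rests on the series title, which presents the compound as given to rats with diabetes and depression. The labels state no dose. The labels do not tie libraries to animals, so the spread behind each p-value is that between libraries and could be technical.

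Microglia are the resident macrophages of the brain. They survive on signals through the receptor Csf1r, sense neurons through the fractalkine receptor Cx3cr1 and nucleotides through P2ry12, and in rodents are marked by Tmem119 and by Aif1, the calcium-binding protein also called Iba1. In the brain they are the main makers of the 3 chains of C1q, which together form the recognition molecule of the classical complement pathway. C1q tags synapses and debris, and the cascade that follows cleaves C3, which in brain is also made by astrocytes, meninges and choroid plexus.

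All 9 genes were detected in all 9 libraries, but at low counts. Library totals ran from 631119 to 866048 counts, and the median tested gene had 23.3 counts per library. Of the 9 genes, 5 had enough counts to be tested (C1qa, C1qb, C1qc, Csf1r and Aif1), among 7073 genes tested in all. C3, Cx3cr1, P2ry12 and Tmem119 fell below the count filter and are given as counts and ratios with intervals. How strand was treated in counting is not given in the sources used here, so a count under a gene's name may hold reads of the gene's own strand, of the opposite strand or of both. Mt-nd6, encoded on the light strand of the mitochondrial genome, held 149057 counts against 78349 for Mt-co1 of the heavy strand. Protein-coding genes overlapped by RefSeq genes on the opposite strand alone had a median of 52.5 counts in total (2890 genes), against 17 for 9651 genes overlapped by none. The median was 32 for 312 genes overlapped on the same strand alone and 47 for 2627 genes with other overlaps. Of the 9 genes, P2ry12 lies within Med12l and Cx3cr1 overlaps the long non-coding RNA gene LOC134480114; the other 7 overlap no RefSeq gene. All 10 hippocampal neuron markers had counts, though Prox1, a dentate marker, and Zbtb20 had 11 each over the 9 libraries.

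Per length of gene, the C1q chains stood highest. The deposited FPKM (counts scaled by gene length and library total) over the 9 libraries averaged 26.7 ± 8.11 (SD, n = 9) for C1qa, 20.7 ± 3.46 for C1qb and 13.6 ± 3.57 for C1qc. Aif1 followed at 8.06 ± 1.37 FPKM. The receptors and C3 lay lower, with Tmem119 at 3.63 ± 1.71, Csf1r at 3.21 ± 1.06, P2ry12 at 2.43 ± 0.529, C3 at 1.98 ± 0.925 and Cx3cr1 at 1.75 ± 0.674 FPKM. C1qb stood above C1qc, and Aif1 above Tmem119, in 9 of 9 libraries, and C1qc above Aif1 in 8. Other neighbours in this order were within their spread: C1qa was above C1qb in 6 libraries, Tmem119 above Csf1r in 4, Csf1r above P2ry12 in 7, P2ry12 above C3 in 6 and C3 above Cx3cr1 in 5.

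The 9 genes together were lower in ChryM than in both other groups. Their summed level was 182 ± 19.2 CPM in Ctrl, 192 ± 11.4 CPM in Model and 131 ± 12.3 CPM in ChryM (SD, n = 3). CPM are counts scaled to a common library size, here by the trimmed mean of M-values (TMM). Their summed counts were 166, 136 and 127 in Ctrl, 125, 106 and 138 in Model, and 93, 115 and 102 in ChryM. No ChryM library reached the scaled level of any Model or Ctrl library. The ratio of ChryM to Model was 0.681 (95% counting interval 0.584 to 0.795), that of ChryM to Ctrl 0.718 (0.618 to 0.833) and that of Model to Ctrl 1.05 (0.914 to 1.21). These intervals cover counting error only, not the spread between animals. Without C1qa and C3, the ratio of ChryM to Model was 0.706 (0.581 to 0.857) and that of ChryM to Ctrl 0.80 (0.66 to 0.96). In whole tissue, fewer microglia and less RNA per microglial cell cannot be told apart.

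**Figure D1:**
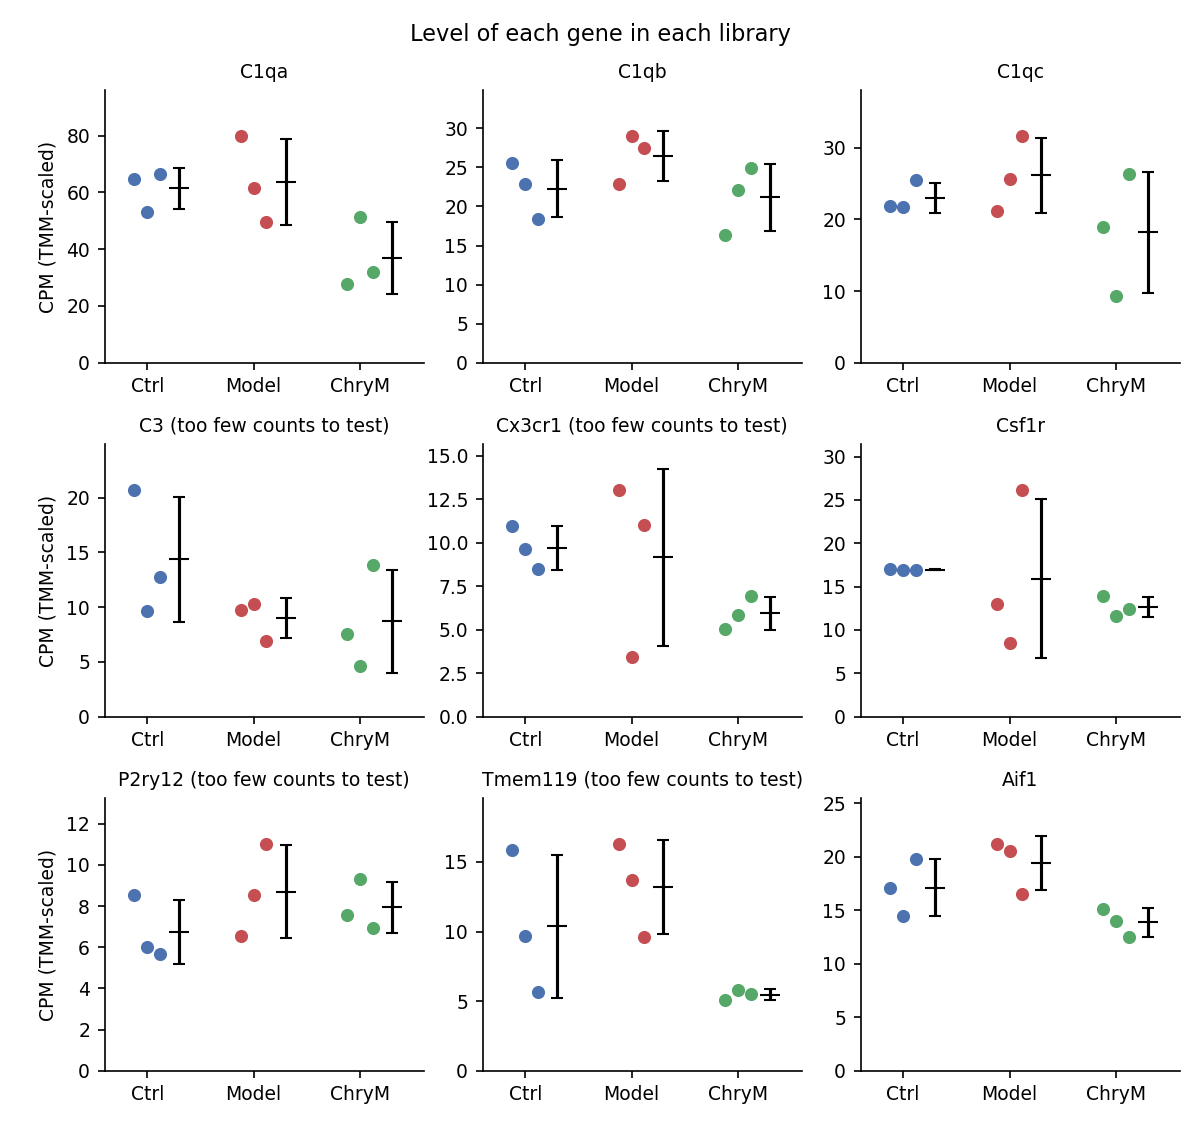
Level of each of the 9 genes (CPM, y axis from 0) in each library, with the 3 libraries of a group as points and the mean with SD in black beside them. Tmem119 and Aif1 in ChryM lie below every Model library, while for C1qa the highest ChryM library (51.3 CPM) lies above the lowest Model library (49.6 CPM).

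By gene, all 9 ratios of ChryM to Model were below 1, from 0.422 for Tmem119 to 0.954 for C3, with a median of 0.724. Only the intervals of C1qa and Tmem119 lay wholly below 1. Of all tested genes, 49.7% had a negative fold change in this comparison. Groups did not overlap for 2 of the 9 genes (Tmem119 and Aif1), near the 23.6% of tested genes without overlap in either direction. Both were lower, where 11.7% of tested genes were lower without overlap. Tmem119 itself fell below the count filter of that background. Of the 5 tested genes, C1qa alone was called lower in ChryM than in Model, where 8.27% of tested genes were called, 3.86% higher and 4.41% lower. The 5 log2 fold changes ran from -0.75 to -0.33 with a median of -0.46, against 0.0 for all tested genes; which 5 genes could be tested rests on their counts.

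**Figure D2:**
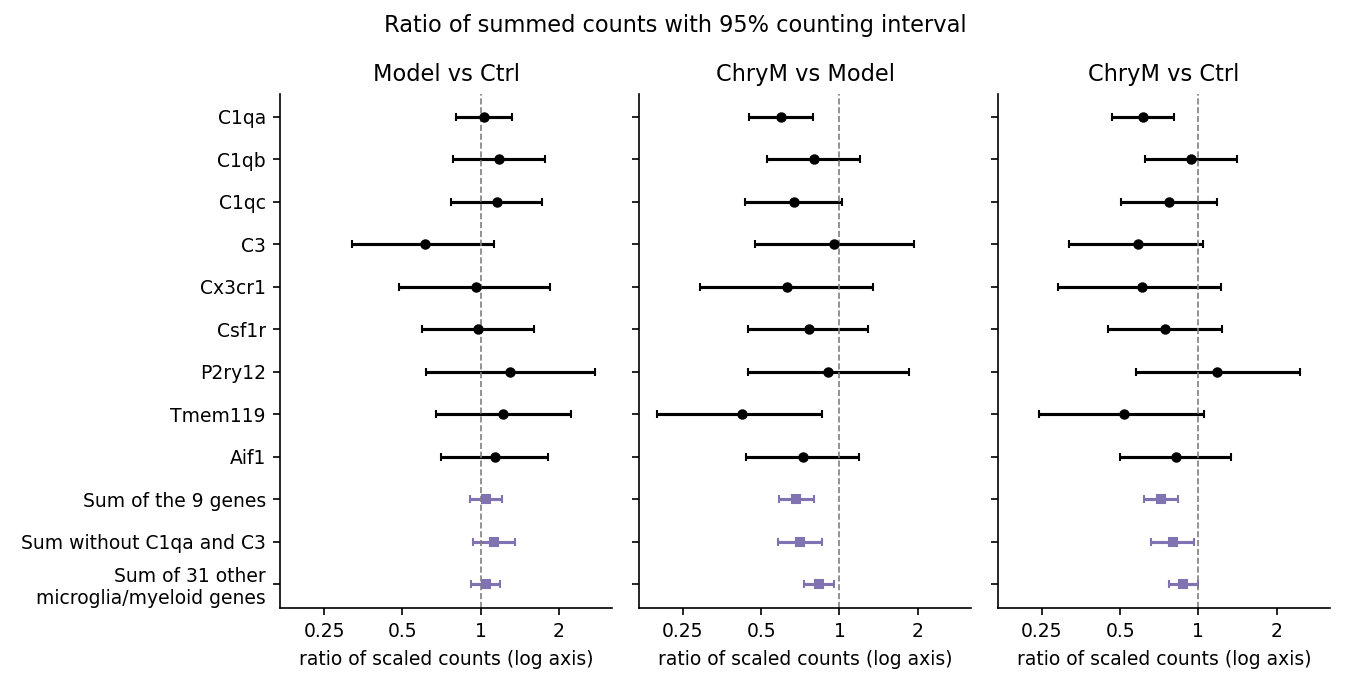
Ratio of summed counts, scaled to library size (x axis, log scale), for each comparison, with 95% exact counting intervals. Circles are single genes and squares are sums; the sum of the 9 genes lies below 1 in both comparisons of ChryM and at 1.05 in Model vs Ctrl.

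C1qa encodes the A chain of C1q and carried the largest counts of the 9 genes. It had 53, 44 and 47 counts in Ctrl, 49, 36 and 36 in Model, and 22, 44 and 23 in ChryM. ChryM 2, at 51.3 CPM, lay between the lowest Model library and the lowest Ctrl library, while ChryM 1 and ChryM 3 were lower than every Ctrl and Model library. C1qa (ENSRNOG00000012807) fell from 63.7 ± 15.3 CPM in Model to 37.0 ± 12.6 CPM in ChryM, a log2 fold change of -0.75 ± 0.21 (SE; edgeR adjusted p = 0.00979). Against Ctrl, at 61.4 ± 7.24 CPM, the log2 fold change was -0.70 ± 0.20 (edgeR adjusted p = 0.00594), and the 2 groups did not overlap. Between Model and Ctrl it was 0.04 ± 0.19 (edgeR adjusted p = 0.928). The call against Model was lost without Model 1 (adjusted p = 0.179), ChryM 1 (0.129) or ChryM 3 (0.0661), and that against Ctrl without ChryM 1 (0.0838). With DESeq2 neither was called (adjusted p = 0.0602 and 0.0592), and on log2(FPKM + 1) the call against Model was lost (0.0853).

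C1qb and C1qc encode the partner chains, and in the RefSeq assembly GRCr8 they neighbour C1qa on chromosome 5. C1qb had 21, 19 and 13 counts in Ctrl, 14, 17 and 20 in Model, and 13, 19 and 18 in ChryM, and the groups overlapped. Its log2 fold change from Model to ChryM was -0.33 ± 0.29 (edgeR adjusted p = 0.603). C1qc had 18 counts in each Ctrl library, 13, 15 and 23 in Model, and 15, 8 and 19 in ChryM. Its log2 fold change was -0.58 ± 0.31 (edgeR adjusted p = 0.290). In Ctrl, C1qa made up 57.4% of the counts of the 3 chains (exact 95% interval 51.0 to 63.6), in Model 54.3% (47.5 to 60.9) and in ChryM 49.2% (41.7 to 56.7). These intervals overlap, and a fall of C1qa beyond that of its partner chains was not detectable at this depth. The ratio of ChryM to Model for C1qb and C1qc together was 0.732 (95% counting interval 0.546 to 0.980), beside 0.597 (0.449 to 0.791) for C1qa.

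**Figure D3:**
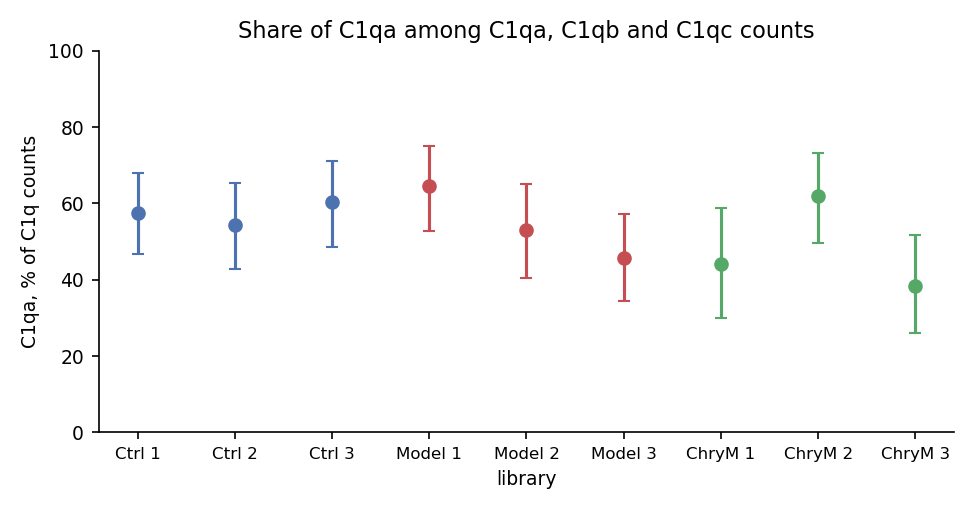
Share of C1qa among the summed counts of C1qa, C1qb and C1qc (y axis, percent) in each library, with exact 95% binomial intervals. The share is 38.3% in ChryM 3 and 62.0% in ChryM 2, a wider gap than that between the shares of the groups.

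The 250 bases before the RefSeq start of C1qa, C1qb and Csf1r are shown. C1qa was called and its neighbour C1qb was not, though a fall of C1qa beyond its partner chains was not detectable. Csf1r is the receptor that microglia depend on. A link between these sequences and the counts was not tested. Capitals mark GAGGAA, a form of the core of sites of the myeloid factor PU.1, or its reverse complement TTCCTC. No other letters are capital, and other forms of this length were not searched. The sequences are written 5′ to 3′ on the strand of the gene, in build GRCr8: chr5:154419934-154420183 (minus strand) for C1qa, chr5:154407828-154408077 (minus) for C1qb and chr18:56834129-56834378 (plus) for Csf1r.
C1qa: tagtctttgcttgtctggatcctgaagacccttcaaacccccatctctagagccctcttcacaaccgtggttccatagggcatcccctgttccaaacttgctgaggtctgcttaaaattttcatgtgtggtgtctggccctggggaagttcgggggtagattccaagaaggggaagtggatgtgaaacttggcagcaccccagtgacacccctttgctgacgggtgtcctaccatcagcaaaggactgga
C1qb: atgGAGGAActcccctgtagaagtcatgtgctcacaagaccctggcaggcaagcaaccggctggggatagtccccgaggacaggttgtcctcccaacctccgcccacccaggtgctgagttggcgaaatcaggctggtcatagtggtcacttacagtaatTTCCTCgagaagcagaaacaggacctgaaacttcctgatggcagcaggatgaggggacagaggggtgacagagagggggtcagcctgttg
Csf1r: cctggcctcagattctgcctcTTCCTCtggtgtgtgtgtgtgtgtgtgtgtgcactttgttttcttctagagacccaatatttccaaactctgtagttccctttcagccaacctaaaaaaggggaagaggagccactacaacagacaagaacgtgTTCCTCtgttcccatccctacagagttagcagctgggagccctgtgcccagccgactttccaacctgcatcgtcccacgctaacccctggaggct
GAGGAA was found on either strand 2 times in the C1qb window, 2 times in the Csf1r window and not in the C1qa window. Of 33469 RefSeq windows of this length, 23.3% held it. The shorter ETS core GGAA, which GAGGAA contains, was found 5, 3 and 7 times in the C1qa, C1qb and Csf1r windows, and 93.2% of all windows held it. Of the 9 genes, 5 had an entry; the windows of C3 and Cx3cr1 held no GAGGAA.

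Tmem119, a transmembrane protein that marks microglia, showed the lowest ratio of ChryM to Model among the 9 genes. It had 13, 8 and 4 counts in Ctrl, 10, 8 and 7 in Model, and 4, 5 and 4 in ChryM. The ratio of ChryM to Model was 0.422 (95% counting interval 0.198 to 0.856), and every ChryM library was below every Model library. The third Ctrl library also had 4 counts, and the ratio of ChryM to Ctrl was 0.517 (0.243 to 1.05). When all genes were tested without a count filter, Tmem119 was not called against Model (edgeR adjusted p = 0.241).

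Csf1r, the receptor of the growth factors Csf1 and Il34, had 14, 14 and 12 counts in Ctrl, 8, 5 and 19 in Model, and 11, 10 and 9 in ChryM. Model libraries spanned the other groups, from 8.54 to 26.2 CPM. The log2 fold change of ChryM against Model was -0.39 ± 0.37 (edgeR adjusted p = 0.638), and it became 0.22 without Model 3. Against Ctrl, Csf1r was lower in each ChryM library, at -0.42 ± 0.35 (edgeR adjusted p = 0.457). Cx3cr1 had 9, 8 and 6 counts in Ctrl, 8, 2 and 8 in Model, and 4, 5 and 5 in ChryM. Each ChryM library was below each Ctrl library, at a ratio of 0.605 (95% counting interval 0.288 to 1.23). C1qa, Csf1r and Cx3cr1 were thus 3 of 9 genes without overlap between ChryM and Ctrl, near the 31.7% of tested genes without overlap in either direction. All 3 were lower, where 15.8% of tested genes were lower without overlap. Cx3cr1 itself fell below the count filter of that background.

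P2ry12, the nucleotide receptor that guides microglial processes, had 7, 5 and 4 counts in Ctrl, 4, 5 and 8 in Model, and 6, 8 and 5 in ChryM. It was the single gene of the 9 with a ratio of ChryM to Ctrl above 1, at 1.18 (95% counting interval 0.575 to 2.45). Reads of Med12l, within which it lies, may be counted in it. Aif1 had 14, 12 and 14 counts in Ctrl, 13, 12 and 12 in Model, and 12, 12 and 9 in ChryM. Scaled to library size, each ChryM library was below each Model library, with a log2 fold change of -0.46 ± 0.35 (edgeR adjusted p = 0.503).

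C3, the central component on which all complement pathways converge, followed another order. It had 17, 8 and 9 counts in Ctrl, 6, 6 and 5 in Model, and 6, 4 and 10 in ChryM. The ratio of Model to Ctrl was 0.612 (95% counting interval 0.321 to 1.13), and ChryM stood at 0.954 of Model (0.475 to 1.94). The groups overlapped in each comparison. Markers of choroid plexus, where C3 is also made, had 1773 to 1835 summed CPM of the library total in Ctrl, 34.9 to 44.0 in Model and 77.4 to 87.0 in ChryM. All 11 of these markers had counts, and Ttr alone held 3694 of them. Without Ttr the list had 615, 75 and 103 counts. Meningeal fibroblast markers, 9 of 9 with counts, had 172 to 183, 28.8 to 34.9 and 34.3 to 41.7 CPM. The part of these cells in the C3 counts was not tested.

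Model against Ctrl showed no call among the 5 tested genes with edgeR, where 12.4% of tested genes were called, 7.04% higher and 5.39% lower. None had an unadjusted p under 0.05. Limma-voom called 0 as well, and DESeq2 did not call C1qa and gave no adjusted p for the other 4. The groups overlapped for all 9 genes, where 26.1% of tested genes had no overlap. The log2 fold changes were 0.24 ± 0.29 for C1qb, 0.21 ± 0.29 for C1qc, 0.18 ± 0.33 for Aif1, 0.04 for C1qa (-0.08 with library totals) and -0.03 ± 0.35 for Csf1r. With so few counts the intervals are wide: those of the Model to Ctrl ratio reached 1.32 for C1qa and 2.22 for Tmem119. ChryM against Ctrl gave 1 call, C1qa, where 18.8% of tested genes were called, 9.83% higher and 8.96% lower.

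The ligands of the microglial receptors were measured beside them. Cx3cl1, the neuronal fractalkine that binds Cx3cr1, was lower in ChryM than in Ctrl, at 83.2 ± 8.50 and 114 ± 4.31 CPM (edgeR adjusted p = 0.0146). It stood at 96.0 ± 19.5 CPM in Model, and neither comparison with Model was called (adjusted p = 0.350 and 0.459). The call was lost with DESeq2 (adjusted p = 0.102), on log2(FPKM + 1) (0.0728), without a count filter (0.0540), without ChryM 1 (0.0793) and without Ctrl 2 (0.0619). Csf1 summed to 27, 15 and 19 counts in Ctrl, Model and ChryM, and Il34 to 23, 24 and 22. Scaled to library size, the means in that order were 11.6, 7.70 and 8.01 CPM for Csf1 and 9.56, 12.7 and 9.1 CPM for Il34.

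Of the other initiating components, 3 of 9 found genes could be tested, and none was called in any comparison. C4a, the C4 cleaved by the C1 complex, had 41, 36 and 23 summed counts in Ctrl, Model and ChryM. Its ChryM libraries, with 6, 10 and 7 counts, were below every other library in CPM, but it missed the threshold (edgeR adjusted p = 0.127 against Model and 0.107 against Ctrl). Cfb, the protease of the alternative pathway, had 33, 24 and 17 counts (adjusted p = 0.380 and 0.128). The lectin pathway proteases Masp1 and Masp2 had 27 and 206 counts in ChryM, 29 and 158 in Model, and 33 and 219 in Ctrl. Scaled to library size, these were 11.6 and 86.8 CPM in ChryM, 14.8 and 82.6 in Model, and 13.7 and 93.8 in Ctrl. C5, C6, C8a and C8b were listed at 0 in all libraries, and the complement receptors had 12, 17 and 17 counts over 7 genes.

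Among the complement regulators, Clu, clusterin, an inhibitor of the terminal complex made mostly by astrocytes, went from 379 ± 14.2 CPM in Ctrl to 316 ± 13.5 in Model and 293 ± 13.5 in ChryM. Its adjusted p was 0.000828 for ChryM against Ctrl. For Model against Ctrl it was 0.0480, and that call was lost in 7 of 9 fits that left out 1 library and with DESeq2 (0.113). The membrane inhibitor Cd59 and the neuronal regulators Csmd2, Sez6, Sez6l, Sez6l2 and Susd4 were not called.

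Other genes of microglia and myeloid cells went both ways. The 31 genes of that list, 30 with counts, had a ChryM to Model ratio of summed counts of 0.835 (95% counting interval 0.731 to 0.954), and the groups overlapped. Whether this ratio differs from that of the 9 genes was not tested, and the intervals overlap. Of its 17 genes with at least 20 counts in all, 12 had a ratio below 1 and 5 above. Among the tested genes, Lyz2, the lysozyme of macrophages, was called lower in ChryM than in Ctrl (log2 fold change -1.39 ± 0.39, edgeR adjusted p = 0.00392), a call lost without Ctrl 2 (0.0816). Lyz2 had 16, 23 and 11 counts in Ctrl, 6, 7 and 7 in Model, and 9, 7 and 3 in ChryM. The lysosomal protease gene Ctss had 113, 118 and 118 summed counts in Ctrl, Model and ChryM. Scaled to library size these were 48.3 ± 7.12, 61.4 ± 24.1 and 49.5 ± 5.70 CPM, with no call. Selplg, a microglial adhesion ligand, had its highest mean in Model, at 19.7 ± 4.42, 28.5 ± 1.06 and 20.2 ± 3.33 CPM, in Ctrl, Model and ChryM, without a call (edgeR adjusted p = 0.272 and 0.350 against Model). The ChryM to Model ratio was 0.811 (95% counting interval 0.265 to 2.48) for the lipid receptor gene Trem2 and 1.17 (0.463 to 3.11) for its partner Tyrobp. For the transcription factor gene Irf8, with 13 counts in Model and 26 in ChryM, it was 1.62 (0.804 to 3.44). Each of these 3 intervals includes 1. The integrin gene Itgb2 had 12 counts in Model and 3 in ChryM, a ratio of 0.203 (0.0367 to 0.752), the one interval of the 17 wholly below 1. These 4 genes were chosen after their values were seen.

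Genes described as raised in microglia near lesions gave no common direction. Of 9 tested, B2m and Fth1 were called between ChryM and Model, where 8.27% of all tested genes were called. B2m was lower (61.0 ± 7.41 against 96.0 ± 18.8 CPM, edgeR adjusted p = 0.00485) and Fth1, for iron storage, higher. Apoe, which astrocytes also make in quantity, was higher in Model and in ChryM than in Ctrl. Against Ctrl, Cd9 was called lower in both groups and Ctsl lower in Model. Ctsb and B2m were called lower and Fth1 higher in ChryM than in Ctrl. Of all tested genes, 12.4% were called for Model and 18.8% for ChryM against Ctrl. Cst7, Itgax and Clec7a were listed at 0. Of 19 genes of cytokines and innate sensors none could be tested, and Il1b, Tnf, Il6, Tlr4, Ccl2 and Ccl3 were listed at 0 in all libraries. The list had 78, 32 and 36 counts in Ctrl, Model and ChryM. The largest totals in the list were those of Ptgs2, a prostaglandin synthase gene that neurons also express, with 30, 13 and 17 counts, and of the chemokine gene Cxcl10, which had 22 counts in Ctrl but 0 in both other groups. Both were singled out after their values were seen.

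**Figure D4:**
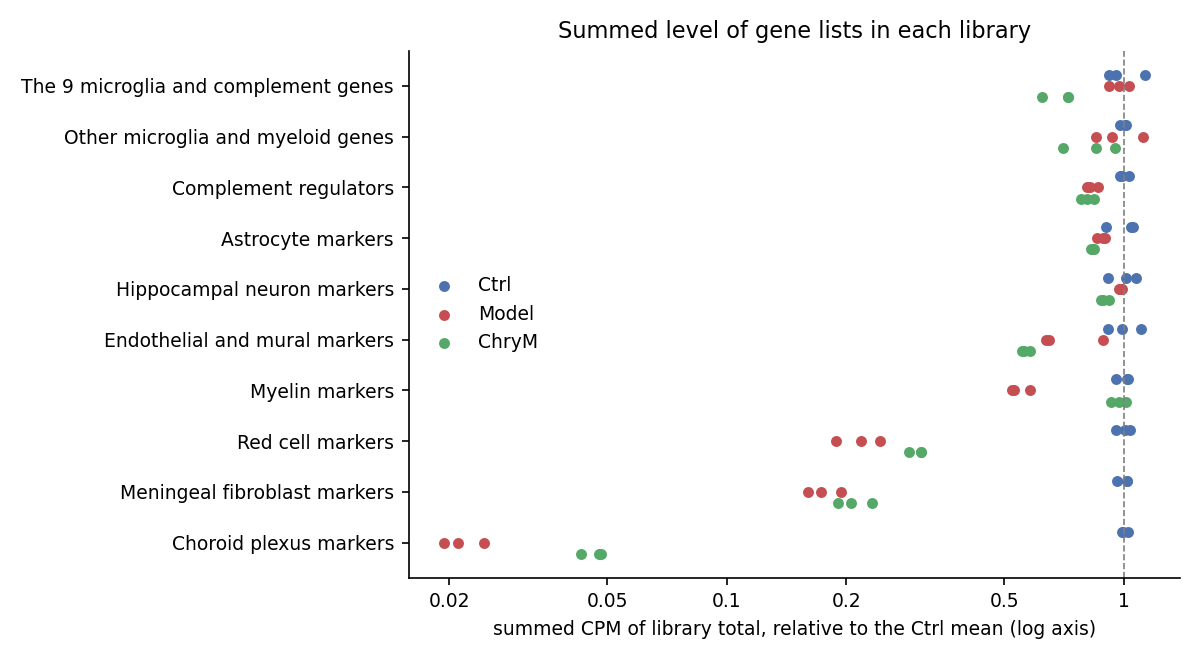
Summed CPM of the library total for each gene list in each library, relative to the Ctrl mean (x axis, log scale); points are libraries coloured by group. The sum of the 9 genes lies lower in ChryM than in the other groups, as do the sums of astrocyte markers and of endothelial and mural markers. Choroid plexus markers are low in both Model and ChryM, and myelin markers are low in Model.

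Markers of perivascular macrophages other than Cbr2 and of blood leukocytes were near 0. Without Cbr2, which alone had 9684 counts, the perivascular macrophage list had 12, 8 and 8 counts in the 3 groups over 7 genes. Blood leukocyte markers, 7 of 11 with counts, had 11, 5 and 9, and Cd79a, Cd79b, Ms4a1 and Nkg7 were listed at 0. Red cell markers, 3 of 3 found with counts, had 330 to 358 summed CPM of the library total in Ctrl, 65.1 to 84.0 in Model and 99.0 to 106.5 in ChryM. Both tested globin genes, Hba-a1 and Hbb, were called lower in Model and in ChryM than in Ctrl. Endothelial and mural markers, 7 of 7 found with counts, had 46.2 to 48.2 CPM in ChryM against 53.0 to 73.8 in Model and 75.65 to 91.6 in Ctrl. Astrocyte markers, 9 of 9 with counts, had 1399 to 1426 in ChryM against 1454 to 1521 in Model and 1532 to 1792 in Ctrl. Both lists were thus also lowest in ChryM. Neuron markers, 10 of 10, had 2074 to 2183 in ChryM against 2302 to 2347 in Model, but members went both ways. The synaptic gene Snap25 was lower in ChryM (1103 ± 31.4 against 1397 ± 40.6 CPM, edgeR adjusted p = 0.000218), and Wfs1, a marker of CA1 pyramidal neurons, was higher (86.7 ± 12.7 against 25.7 ± 4.17 CPM, edgeR adjusted p = 1.48e-11). Myelin markers, 10 of 10, went the other way, at 15070 to 16480 in ChryM against 8508 to 9422 in Model. The part of these shifts in the levels of the microglial genes was not tested.

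Genes whose pattern over the 9 libraries lay nearest were sought among 4681 named genes with a mean of at least 20 CPM. The measure was the root-mean-square difference in log2 CPM centred on the mean of each gene. Nearest to the summed C1q chains were Nutm1 (0.0577), Fgf13 (0.0764), Slc3a1 (0.104) and Ap2a2 (0.104), where the median gene was at 0.383. Nearest to the summed Cx3cr1, Csf1r, P2ry12 and Tmem119 were Got2 (0.125), Stx1a (0.142), Srpk2 (0.144) and Pfkp (0.145). None of these 8 is among the listed microglial genes, and the libraries share depth and scaling, so the likeness is a description.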

How the data were processed

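RNA was measured in 9 hippocampal libraries. Libraries were strand-specific, made from poly(A) RNA with dUTP, per the labels. The authors deposited whole-number read counts per gene and a second table of FPKM with gene lengths, per the file headers. The submitters' processing notes name HISAT2 and DESeq2 without versions; a counter, its handling of strand, a build and an annotation were not given in the sources used here. Deposited FPKM equalled count over length and library total in 100.0% of values (relative tolerance 1e-09). IDs without a gene name (4367) were kept and held 21.99% to 24.58% of counts.

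Genes were kept by filterByExpr and scaled by TMM over the genes kept. One fit on all 9 libraries, with a coefficient per group, was tested with edgeR 4.0.16 (glmQLFit, robust; R 4.3.3), two-sided; genes with an adjusted p (Benjamini-Hochberg, 7073 genes) under 0.05 were called. Each printed SE is the test's own or the counting SE, whichever was larger. Ratios of summed counts have exact binomial 95% intervals. Alternatives used DESeq2 1.42.0, limma 3.58.1 (voom, and log2(FPKM + 1) or log2(FPKM + 0.1)), other scalings, filters and samples. The test was checked on simulated data. Members, gene lists and tests were chosen with earlier results of these data known. All 9 genes are named; from each other list the rule names up to 4 tested genes with the smallest p, all ligands, and 4 genes of nearest pattern to each sum; others named were chosen after their values were seen, and some genes the rule names are not reported here. Upstream sequences are from RefSeq (GRCr8).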

Additional observations from a re-analysis of the deposited data

How the results depend on the processing

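Counts per gene limit every statement: with 52 to 154 counts in all, 8 of the 9 genes have wide intervals, and 4 could not be tested. The ratio of the 9 summed genes for ChryM to Model stayed at 0.657 to 0.716 without any 1 library and was 0.708 with library totals; for ChryM to Ctrl it was 0.681 to 0.763 and 0.689. For Model to Ctrl it was 1.000 to 1.12, and 0.974 with library totals, which moved the all-gene median (log2) by -0.12. C1qa was the 1 call of ChryM vs Model and of ChryM vs Ctrl; leaving out 1 library gave 0 to 1 in each. DESeq2 called 0 in both, where the other 4 tested genes had no adjusted p, and log2(FPKM + 1) and log2(FPKM + 0.1) called 0 in ChryM vs Model; the cause was not tested. Over all genes, 879 calls for Model vs Ctrl became 423 with DESeq2, 553 on log2(FPKM + 1) and 521 on log2(FPKM + 0.1). For ChryM vs Model 585 became 298, 352 and 351 under the same settings, and for ChryM vs Ctrl 1329 became 631, 793 and 772. Without 1 library the calls were 599 to 860, 391 to 622 and 968 to 1321 in that order.

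Same-numbered libraries did not deviate together (correlations -0.03 to 0.042, and 3 of 9 libraries correlated best with their own number). With a replicate block the counts called were 855, 586 and 1317, the members called were 0, 1 and 1, and C1qa was at -0.76 against Model; the block changed no call of the 9 genes.

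Some signs turned. In Model vs Ctrl C1qa (0.04) was at -0.08 with library totals and on both FPKM scales and at -0.03 with a mean count of at least 30, and C4a and Masp1 were at -0.02 with library totals. In ChryM vs Ctrl Selplg was at -0.04 with library totals and -0.01 on both FPKM scales and Ctss at -0.01 with library totals or a mean count of at least 30 and -0.02 on both FPKM scales. Leaving out 1 library gave, in Model vs Ctrl, -0.17 to 0.2 for C1qa, -0.65 to 0.24 for Csf1r, -0.12 to 0.3 for C4a, -0.12 to 0.28 for Masp1, -0.62 to 0.02 for Cfb and -0.38 to 0.09 for Sez6l. In ChryM vs Model it gave -0.67 to 0.22 for Csf1r, -0.03 to 0.23 for Masp2 and -0.51 to 0.03 for Ctss. In ChryM vs Ctrl it gave -0.21 to 0.05 for C1qb, -0.26 to 0.03 for Masp2, -0.11 to 0.2 for Selplg and -0.05 to 0.17 for Ctss. The cause was not tested.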
